A study of Mus musculus with 9 samples.

Results

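The ephrins, the semaphorins and their receptors are the guidance genes described here: 49 listed genes of the Eph, ephrin, semaphorin, plexin and neuropilin families. They were chosen by name, with earlier results of these data known, and family counts below cover the listed genes alone. A gene was represented by the probe set that carries its symbol alone, the brightest over all 9 arrays where there were several, and 48 of the 49 were measured in this way, of 19938 genes in all. Ephb2 was not analysed here. The 48 genes comprise 28 ligands (8 ephrins and 20 semaphorins) and 20 receptors (10 Eph receptors, 8 plexins and 2 neuropilins).

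Expression was read on 9 Affymetrix Gene ST arrays, 3 for each of 3 genotypes of mouse embryonic fibroblasts (MEFs). TM cells are triple mutants: they carry mutant alleles of Ero1α, of Ero1β and of Prdx4, the X-linked gene of peroxiredoxin 4. DM cells are double mutants that have both mutant Ero1 genes and normal Prdx4. WT cells are labelled wild type, whereas the study's methods describe control MEFs with a normal and a mutant Ero1α copy, no normal Ero1β copy and normal Prdx4, so the Ero1β mutation may be shared by all 3 groups. The Ero1 alleles are gene-trap insertions, and the cells are labelled as transformed with T antigen, on the C57B/L6 background. The study's supplement relates its array figure to a main figure made with primary MEFs, and gives T antigen MEFs for later figures. These sources thus differ on whether the cells on the arrays were primary. Whether replicate arrays go back to separate embryos or cultures is not stated, so the p-values cover only the scatter among arrays, which could be purely technical. Values are log2 intensities normalized by RMA, and a difference of 1 is a doubling. Calls of higher or lower rest on limma and needed both an adjusted p under 0.05 (Benjamini-Hochberg, over all 19938 genes) and a change over 1.5-fold, which is 0.58 on the log2 scale.

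Ephrins and semaphorins are short-range signals by which cells repel, attract or sort from one another, first known from growing axons and also at work in fibroblasts, blood vessels and mesenchyme. Ephrin-A ligands are held to the membrane by a lipid anchor and mainly bind EphA receptor tyrosine kinases, ephrin-B ligands span the membrane and mainly bind EphB receptors, and both sides of the contact can signal. Class 3 semaphorins are secreted and mostly act through a neuropilin that binds them and a plexin that signals, whereas classes 4 to 7 are attached to the cell surface and mostly bind plexins directly. All of these proteins fold in the endoplasmic reticulum, where ERO1 and PRDX4 take part in making disulfide bonds.

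The mutated genes followed the labels where they could be read. Ero1a, which encodes ERO1α, was at 9.12, 8.98 and 9.10 in TM and 9.45, 9.41 and 9.52 in DM, against 11.88, 11.87 and 11.84 in WT. Prdx4 was at 5.96, 6.75 and 6.17 in TM and 10.71, 10.45 and 10.88 in DM, against 10.58, 10.66 and 10.44 in WT. Ero1b stood at 7.94 in TM, 7.70 in DM and 7.65 in WT and was called in no comparison. Array medians ran between 7.62 and 7.72. In mean level over the 9 arrays, 12 of 12 fibroblast markers lay above the median gene, as did 5 of 6 mesothelial, 5 of 8 smooth muscle and pericyte and 0 of 8 endothelial markers. Thy1 passed through TM alone, at 10.61 in TM, 7.42 in DM and 7.67 in WT. The mesothelial markers Wt1, Upk3b and Upk1b passed through DM alone, at 11.59, 12.26 and 12.13 in DM. They were at 7.61, 7.05 and 6.31 in TM and at 7.54, 7.19 and 6.56 in WT. The fibroblast mean over the 12 genes was 11.66 to 11.72 in TM, 11 in DM and 11.19 to 11.29 in WT. The mesothelial mean over the 6 genes stood apart in DM, which is labelled as fibroblasts like the others: it was 7.27 to 7.40 in TM, 11.07 to 11.20 in DM and 8.27 to 8.33 in WT. Xist, the RNA that coats the inactive X chromosome, was at 5.72 in TM, 12.56 in DM and 5.70 in WT. On the Y chromosome, Eif2s3y (-2.01), Uty (-1.74) and Kdm5d (-1.49) were lower in DM against WT and stood between -0.02 and 0.06 in TM. DM thus differed from TM and WT in these sex-linked genes as well as in genotype. This applies to every comparison with DM, for genes on any chromosome. The part of this difference was not tested and cannot be told apart from that of the genotype in these samples.

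Of the 48 guidance genes, 15 were called in TM and 16 in DM against WT. In TM against WT, 7 of 48 were higher and 8 lower, beside 5.59% and 3.56% of all genes tested. In DM against WT, 12 were higher and 4 lower, beside 5.28% and 5.67% of all genes. In TM against DM, 5 were higher and 15 lower, beside 4.68% and 3.61% of all genes. As shares of the 48, these were 14.6% and 16.7% in TM, 25% and 8.33% in DM, and 10.4% and 31.2% between the mutants. Median log2 differences were -0.03 in TM and 0.13 in DM against WT and -0.30 between the mutants, against -0.03, 0.02 and -0.05 over all genes. Of the 48, 26 (54.2%) were called in at least 1 comparison, as were 16.5% of all genes. Brighter genes were called more often, and 32 of the 48 lay above the median gene. Of these 32, 15.6% were higher and 25% lower in TM against WT, beside 7.06% and 5.6% of all genes above the median. In DM against WT they were 31.2% and 9.38%, beside 7.21% and 9.58%. In TM against DM they were 9.38% and 40.6%, beside 6.59% and 5.22%. The counts by family below, of 2 to 8 genes each, are to be read beside the shares of all genes given here. Because the list was chosen with earlier results of these data known, all these shares are descriptive.

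**Figure D1:**
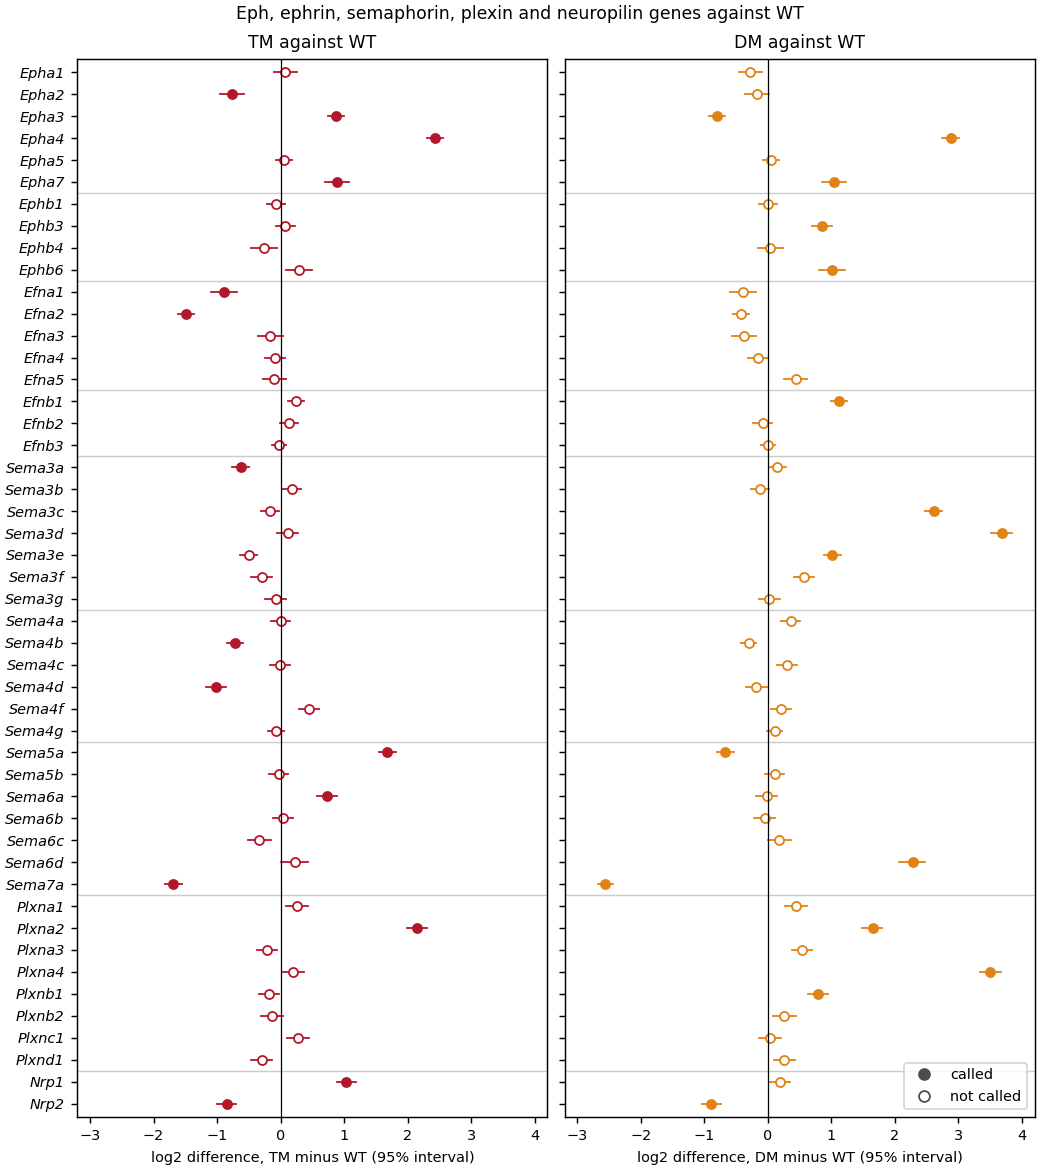
Log2 difference from WT (horizontal axis) of each of the 48 guidance genes (rows, ordered by family with grey lines between families), in TM on the left and DM on the right. Points are fitted differences, lines their 95% intervals, and filled points are called. The 9 genes raised in DM alone have filled points on the right, among them Sema3d at 3.68 and Plxna4 at 3.50, and open points on the left.

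Sorted by how the mutants compared with WT, the called genes fell into 7 patterns. Epha4, Epha7 and Plxna2 were higher in both mutants, and Sema7a and Nrp2 were lower in both. Ephb3, Ephb6, Efnb1, Sema3c, Sema3d, Sema3e, Sema6d, Plxna4 and Plxnb1 were higher in DM and not called in TM. These 9 are 18.8% of the guidance genes, where 2.52% of all genes had this pattern, and all 9 were also lower in TM when the mutants were tested against each other. Of 6 mesothelial markers, 4 were higher and 1 lower in DM, 0 were higher and 2 lower in TM, and 6 were lower in TM against DM. The part of mesothelial cells in the pattern of these 9 genes was not tested. Sema6a and Nrp1 were higher in TM alone, and Epha2, Efna1, Efna2, Sema3a, Sema4b and Sema4d were lower in TM alone. Of the 6 lower genes, 4 were also lower in TM against DM. Efna1 (-0.50) and Sema4b (-0.42) were not called there, and they stood at -0.39 and -0.30 in DM against WT, under 1.5-fold. Epha3 and Sema5a were higher in TM and lower in DM, a pattern of 0.261% of all genes. Sema3f and Plxna3 were called only between the mutants, lower in TM. The other 22 genes were called in no comparison.

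Of the 6 EphA receptors, 3 were higher and 1 lower in TM, and 2 were higher and 1 lower in DM. Epha4, a receptor unusual in binding both ephrin classes, read 9.53, 9.49 and 9.53 in TM and 9.96, 9.94 and 10.01 in DM, against 7.10, 7.16 and 7.0 in WT. All 6 mutant arrays lay far above WT, and DM lay above TM without overlap. The rise was 2.43 in TM (SE 0.059, adjusted p = 1.22e-11, 5.38-fold) and 2.88 in DM (adjusted p = 1.55e-12, 7.37-fold). The TM minus DM difference of -0.45 had an adjusted p of 6.66e-05 but stayed under 1.5-fold. Epha7, which binds ephrin-A ligands, read 9.28, 9.24 and 9.50 in TM and 9.42, 9.65 and 9.40 in DM, against 8.38, 8.55 and 8.41 in WT. Both mutants stood above WT and overlapped each other. Its rise was 0.89 in TM (SE 0.088, adjusted p = 5.53e-06) and 1.04 in DM (adjusted p = 1.14e-06), and the difference between the mutants was -0.15 (95% interval -0.34 to 0.04).

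Epha3 moved in opposite directions. It read 8.30, 8.23 and 8.42 in TM and 6.65, 6.66 and 6.64 in DM, against 7.45, 7.43 and 7.45 in WT, so that WT lay between the mutants with no overlap. TM rose by 0.87 (SE 0.059, adjusted p = 1.54e-07), DM fell by 0.80 (adjusted p = 3.31e-07), and the mutants differed 3.17-fold (log2 difference 1.67, adjusted p = 3.62e-10). Epha2, an EphA receptor of epithelia and many cultured cells, read 10.74, 10.64 and 10.36 in TM and 11.20, 11.10 and 11.24 in DM, against 11.33, 11.36 and 11.35 in WT. Its TM arrays were the lowest and the most spread. It fell by 0.77 in TM (SE 0.087, adjusted p = 1.76e-05) and stood at -0.17 in DM (95% interval -0.36 to 0.02). The call of Epha2 between the mutants, at -0.60, missed the fold limit without DM replicate 3 (-0.57) or without TM replicate 3 (-0.49), and with median centring (-0.58). Epha1 and Epha5 were not called. Epha5 held a single value, 5.80, on all 3 DM arrays.

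Of the 4 EphB receptors measured, 2 were higher in DM, 0 were called in TM and 2 were lower in TM against DM. Ephb3 averaged 9.18 ± 0.10 in TM and 9.97 ± 0.090 in DM, against 9.11 ± 0.057 in WT (SD, n = 3 each). Ephb6, whose kinase domain is inactive, averaged 7.83 ± 0.10 in TM and 8.54 ± 0.19 in DM, against 7.53 ± 0.11 in WT. DM lay above WT by 0.86 for Ephb3 (adjusted p = 7.82e-07) and by 1.01 for Ephb6 (adjusted p = 3.11e-06), and the TM minus DM differences were -0.79 for Ephb3 and -0.72 for Ephb6. Ephb4, the main ephrin-B2 receptor of veins, was at 10.13 in TM, 10.43 in DM and 10.39 in WT and was not called. Ephb1 was not called and lay below the median gene in level.

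Ephrin-A ligands were called in TM and not in DM. Of 5, 2 were lower in TM, 0 were called in DM, and 1 was lower in TM against DM. Efna2 read 8.89, 8.98 and 9.04 in TM and 10.05, 10.07 and 9.99 in DM, against 10.46, 10.44 and 10.49 in WT. The 3 genotypes did not overlap, with TM lowest and DM next. TM fell by 1.49 (SE 0.058, adjusted p = 7.42e-10, 2.81-fold), DM stood at -0.43 (adjusted p = 7.74e-05, under 1.5-fold), and the mutants differed by -1.07 (adjusted p = 2.15e-08). Efna1, a ligand of Epha2, read 8.83, 8.83 and 8.72 in TM and 9.22, 9.36 and 9.29 in DM, against 9.44, 9.85 and 9.76 in WT. The order of the genotypes was the same as for Efna2, again without overlap. TM fell by 0.89 (SE 0.093, adjusted p = 9.24e-06), and DM stood at -0.39 (adjusted p = 0.00517). Efna3, Efna4 and Efna5 were not called; the largest difference among them was -0.54 for Efna5 between TM and DM.

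Among the ephrin-B ligands, which span the membrane, Efnb1 alone was called. It averaged 9.23 ± 0.046 in TM and 10.12 ± 0.041 in DM, against 9.0 ± 0.060 in WT (SD, n = 3 each). DM rose by 1.12 (SE 0.057, adjusted p = 8.95e-09), TM stood at 0.24 (adjusted p = 0.00671), and the mutants differed by -0.88 (adjusted p = 1.14e-07). Efnb1 lies on the X chromosome, as does Plxna3 among the plexins, and DM is the genotype with high Xist and low Y-linked genes. On that chromosome 10.6% of 742 genes were higher and 3.37% lower in DM against WT, beside 5.28% and 5.67% of all genes. The median was 0.08, and 0.02 over all genes. In TM against WT, 8.63% of the 742 were higher and 3.23% lower, beside 5.59% and 3.56% of all genes. The part of the X chromosome in the Efnb1 difference was not tested. Efnb2 differed by 0.13 in TM (95% interval -0.01 to 0.28) and by -0.08 in DM (95% interval -0.23 to 0.07), and Efnb3 by -0.03 (95% interval -0.14 to 0.09) and 0.01 (95% interval -0.11 to 0.12).

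Class 3 semaphorins, the secreted ones, held the largest rise. Of 7, 3 were higher and 0 lower in DM, 0 were higher and 1 lower in TM, and 5 were lower in TM against DM. Sema3d read 7.24, 6.98 and 7.19 in TM and 10.66, 10.67 and 10.78 in DM, against 6.95, 7.03 and 7.09 in WT. TM and WT overlapped below the median gene, and all DM arrays stood more than 3 log2 units higher. The rise in DM was 3.68 (SE 0.075, adjusted p = 1.62e-12, 12.8-fold), and TM stood at 0.12 (95% interval -0.05 to 0.28). The mutants differed by -3.56 (adjusted p = 4.47e-12). The mesothelial marker Wt1 followed the same order, at 7.61 in TM, 11.59 in DM and 7.54 in WT, and Upk3b, Upk1b and Lrrn4 were also highest in DM. The mesothelial markers Msln (7.73 in TM, 9.91 in DM and 11.34 in WT) and Krt19 (8.76, 10.17 and 10.56) were instead highest in WT.

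Sema3c, a ligand for both neuropilins known from the outflow tract of the heart, read 10.24, 10.26 and 10.25 in TM and 12.99, 12.93 and 13.16 in DM, against 10.41, 10.43 and 10.40 in WT. DM was far above the others, and TM lay narrowly below WT. DM rose by 2.61 (SE 0.064, adjusted p = 8.12e-12, 6.11-fold), and TM stood at -0.17 (95% interval -0.31 to -0.03, adjusted p = 0.0707). Sema3e, which binds Plxnd1 without a neuropilin, read 8.30, 8.09 and 8.18 in TM and 9.68, 9.71 and 9.73 in DM, against 8.70, 8.69 and 8.70 in WT. Here the mutants lay on opposite sides of WT, with no overlap. DM rose by 1.01 (SE 0.062, adjusted p = 4.72e-08), TM stood at -0.50 (adjusted p = 3.85e-05, 1.41-fold and so not called), and the mutants differed by -1.51 (adjusted p = 1.26e-09, 2.85-fold).

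Sema3a, the founding repellent of the class, averaged 10.65 ± 0.047 in TM and 11.43 ± 0.066 in DM, against 11.28 ± 0.056 in WT (SD, n = 3 each). It fell by 0.63 in TM (adjusted p = 3.84e-06), a call that missed the fold limit with quantile normalization (-0.56) or cyclic loess (-0.55), and stood at 0.15 in DM. Sema3f, which binds Nrp2, averaged 9.86 ± 0.14 in TM and 10.73 ± 0.057 in DM, against 10.16 ± 0.046 in WT. Its mutants differed by -0.87 (adjusted p = 1.15e-06), and its DM difference of 0.57 crossed the fold limit with quantile normalization (0.63), cyclic loess (0.66), array weights (0.59) or without DM replicate 3 (0.60). Sema3b and Sema3g were not called, and Sema3b held 8.14 on all 3 WT arrays.

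**Figure D2:**
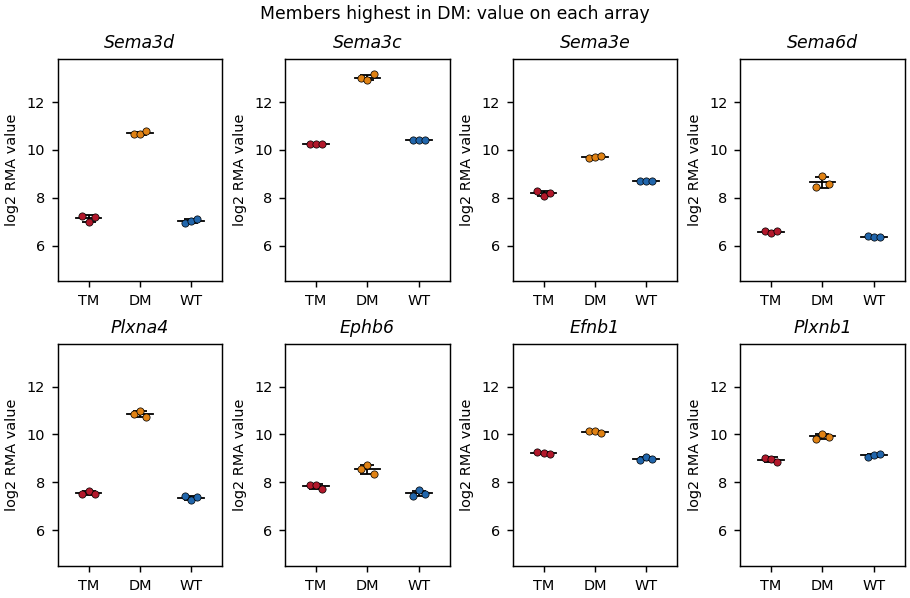
Log2 RMA value (vertical axis, the same in each panel) on each array of 8 of the 9 guidance genes that were higher in DM and not called in TM, with TM, DM and WT from left to right. Points are arrays, bars the mean and error bars the SD (n = 3). The DM points stand above both other genotypes in every panel, by 0.79 above WT for Plxnb1 and by 3.68 for Sema3d.

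Sema3d, Sema3a, Sema3e and Sema3c lie in this order along mouse chromosome 5, and their promoters are shown because 3 of the 4 rose in DM. RefSeq promoters of GRCm38.p6, from 250 bases before to 50 after the start, were found for 42 of the 48 genes. They are chr5:12382916-12383215 for Sema3d, chr5:13396534-13396833 for Sema3a, chr5:14025026-14025325 for Sema3e and chr5:17574566-17574865 for Sema3c, all on the + strand. Capitals mark the GC box (GGGCGG), the TATA box (TATAAA) and the GATA motif (GATAA), each searched on both strands; no matches of different motifs overlapped in the promoters shown.
Sema3d: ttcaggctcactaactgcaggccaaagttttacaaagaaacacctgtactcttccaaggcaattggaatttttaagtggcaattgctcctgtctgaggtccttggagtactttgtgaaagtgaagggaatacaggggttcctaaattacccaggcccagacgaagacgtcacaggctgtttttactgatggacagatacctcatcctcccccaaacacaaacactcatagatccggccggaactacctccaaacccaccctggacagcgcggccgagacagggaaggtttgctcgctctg
Sema3a: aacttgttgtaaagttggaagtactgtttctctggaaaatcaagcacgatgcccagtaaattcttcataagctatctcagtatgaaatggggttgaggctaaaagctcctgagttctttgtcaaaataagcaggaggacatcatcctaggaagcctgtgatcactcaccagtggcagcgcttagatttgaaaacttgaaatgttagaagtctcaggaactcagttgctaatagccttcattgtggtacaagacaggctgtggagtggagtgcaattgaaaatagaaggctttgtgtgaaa
Sema3e: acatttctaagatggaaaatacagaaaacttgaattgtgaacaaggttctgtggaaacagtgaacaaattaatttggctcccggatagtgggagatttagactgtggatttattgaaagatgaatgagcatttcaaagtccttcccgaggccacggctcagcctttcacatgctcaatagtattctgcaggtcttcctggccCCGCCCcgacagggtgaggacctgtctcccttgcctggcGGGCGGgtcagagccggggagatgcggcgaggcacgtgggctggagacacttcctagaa
Sema3c: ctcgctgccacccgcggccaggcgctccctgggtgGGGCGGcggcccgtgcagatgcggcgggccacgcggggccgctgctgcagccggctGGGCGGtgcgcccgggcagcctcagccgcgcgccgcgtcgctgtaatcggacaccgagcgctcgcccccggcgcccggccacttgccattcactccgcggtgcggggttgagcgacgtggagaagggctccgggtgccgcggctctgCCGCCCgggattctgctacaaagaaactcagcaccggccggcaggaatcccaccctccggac
Sema3c has 75.7% G and C, 42 CpG dinucleotides and 3 GC boxes, Sema3e has 50.7%, 11 CpG and 2 GC boxes, and Sema3d (49.7%, 8 CpG) and Sema3a (41.3%, 2 CpG) have 0 matches to any of the 3 motifs. GC boxes were in 76.8% of the 56 promoters listed for the measured guidance genes and in 35.7% of all 32851 promoters. TATA boxes were in 1.79% and 13.6%, and GATA motifs in 12.5% and 25.4%. The median G and C content was 64.0% in the guidance gene promoters and 52.7% in all promoters. Its part in the motif shares was not tested.

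The neighbours of these 4 semaphorin genes that were called moved in opposite directions in DM. Between Grm3 and Magi2, which flank the 4 semaphorins, 12 of 31 protein-coding genes were measured, 8 of them not semaphorins. In mean level over the 9 arrays, Grm3 (6.23), Speer3 (5.37), Pclo (6.80), Cd36 (4.59) and Gnat3 (4.31) were dim. Background weighs more in such values, so a change in these genes could be missed. Pclo and Cacna2d1, between Sema3e and Sema3c, stood at 0.08 and -0.42 in DM and were not called. Hgf, the ligand of the Met receptor, lies next to them and read 7.53 on all 3 TM arrays and 5.92, 5.88 and 5.82 in DM, against 9.08, 9.25 and 9.18 in WT. It fell by 1.64 log2 units in TM and fell by 3.30 in DM. Gnai1, which encodes an inhibitory G protein subunit, read 9.39, 9.21 and 9.39 in TM and 11.08, 11.06 and 11.21 in DM, against 6.63, 7.0 and 6.97 in WT. It was higher by 2.47 in TM and 4.25 in DM. Hgf and Gnai1 were named after their values were seen.

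**Figure D3:**
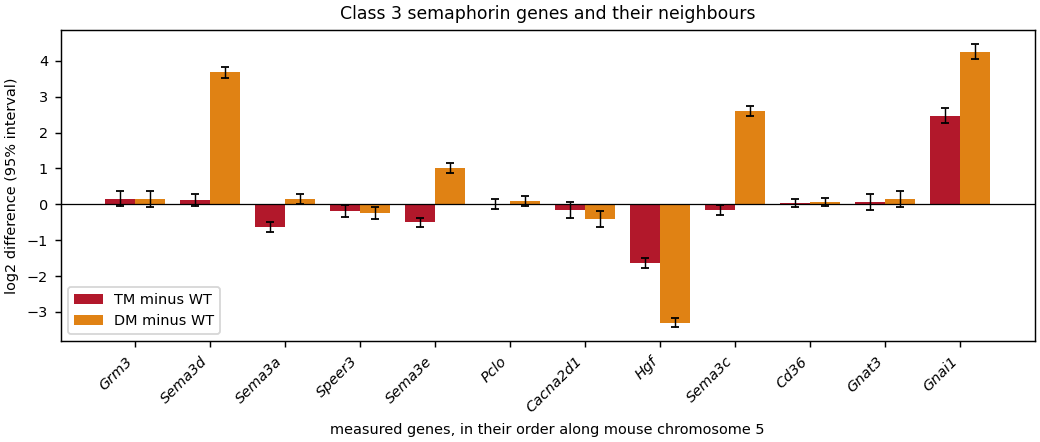
Log2 difference from WT (vertical axis) of the 12 measured protein-coding genes between Grm3 and Gnai1, in their order along chromosome 5 with no distances drawn, in TM (left bar) and DM (right bar). Error bars are 95% intervals. Sema3d, Sema3e, Sema3c and Gnai1 were higher in DM, and Hgf was lower in both mutants.

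Class 4 semaphorins span the membrane, and of 6, 2 were lower in TM, 0 were called in DM and 1 was lower in TM against DM. Sema4d, the Plxnb1 ligand, read 7.63, 7.74 and 7.84 in TM and 8.49, 8.64 and 8.59 in DM, against 8.67, 8.73 and 8.88 in WT. TM was the lowest without overlap, and DM lay just below WT. It fell by 1.02 in TM (SE 0.074, adjusted p = 3.07e-07) and stood at -0.18 in DM (95% interval -0.34 to -0.02). A dimmer second probe set of Sema4d did not share this, at 7.83 in TM, 8.0 in DM and 7.86 in WT, and with the mean of both probe sets the call was lost in TM against WT (-0.53) and in TM against DM (-0.51). Sema4b averaged 9.65 ± 0.062 in TM and 10.07 ± 0.021 in DM, against 10.38 ± 0.036 in WT (SD, n = 3 each), a fall of 0.72 in TM (adjusted p = 4.94e-07). In DM it stood at -0.30 (adjusted p = 0.000809, under 1.5-fold). Sema4a, Sema4c, Sema4f and Sema4g were not called.

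Sema5a, a transmembrane semaphorin with thrombospondin repeats, was the semaphorin with the largest rise in TM. It read 10.39, 10.39 and 10.44 in TM and 8.05, 8.15 and 7.97 in DM, against 8.73, 8.73 and 8.73 in WT. As for Epha3, WT lay between the mutants with no overlap. TM rose by 1.68 (SE 0.059, adjusted p = 2.93e-10, 3.20-fold), DM fell by 0.67 (adjusted p = 1.59e-06), and the mutants differed by 2.35 (adjusted p = 1.79e-11, 5.10-fold). The WT spread of Sema5a, an SD of 0.00035, was small beside that of the other genotypes (0.027 in TM and 0.091 in DM). The promoters of Epha3 and Sema5a, the only guidance genes called in opposite directions, are chr16:63864126-63864425 on the - strand and chr15:32244563-32244862 on the + strand (GRCm38.p6, with the same motifs in capitals).
Epha3: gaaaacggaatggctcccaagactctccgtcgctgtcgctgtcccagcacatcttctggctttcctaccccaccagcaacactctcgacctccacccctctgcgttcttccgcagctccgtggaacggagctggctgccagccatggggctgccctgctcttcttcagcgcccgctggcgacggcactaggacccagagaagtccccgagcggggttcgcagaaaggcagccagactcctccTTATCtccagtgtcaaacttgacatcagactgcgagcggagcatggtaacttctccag
Sema5a: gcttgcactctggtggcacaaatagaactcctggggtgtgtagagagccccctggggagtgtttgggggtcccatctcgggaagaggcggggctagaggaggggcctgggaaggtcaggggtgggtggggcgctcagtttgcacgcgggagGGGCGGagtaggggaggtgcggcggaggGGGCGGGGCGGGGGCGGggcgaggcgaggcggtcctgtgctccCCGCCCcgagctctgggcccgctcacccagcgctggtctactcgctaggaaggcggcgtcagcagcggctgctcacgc
They share none of the 3 motifs: Epha3 has 1 GATA motif and 0 GC boxes, and Sema5a has 5 GC boxes and 0 GATA motifs. The 300 bases of the Sema5a promoter hold 71.3% G and C, and those of Epha3 60.7%. The median was 52.7% over all promoters and 64.0% over those of the guidance genes.

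Sema6d, a transmembrane ligand of Plxna1, read 6.59, 6.54 and 6.60 in TM and 8.45, 8.90 and 8.56 in DM, against 6.40, 6.34 and 6.34 in WT. DM stood well above both others, which lay far below the median gene. DM rose by 2.28 (SE 0.095, adjusted p = 1.28e-09, 4.85-fold), and TM stood at 0.22 (95% interval 0.01 to 0.43, adjusted p = 0.106). Sema6a, a ligand of Plxna2 and Plxna4, read 7.90, 8.0 and 8.12 in TM and 7.32, 7.20 and 7.26 in DM, against 7.17, 7.36 and 7.31 in WT. TM alone was raised, and DM and WT overlapped. The rise was 0.73 (SE 0.073, adjusted p = 6.33e-06), with DM at -0.02 (95% interval -0.18 to 0.14).

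Sema7a, anchored to the membrane by a lipid and a ligand of Plxnc1 and of integrins, had the deepest fall of the 48 in both mutants. It read 8.51, 8.47 and 8.38 in TM and 7.54, 7.62 and 7.60 in DM, against 10.14, 10.10 and 10.20 in WT. The genotypes did not overlap, and DM was the lowest. The fall was 1.69 in TM (SE 0.059, adjusted p = 2.66e-10) and 2.56 in DM (adjusted p = 4.36e-12, 5.88-fold), and TM lay above DM by 0.86 (adjusted p = 1.73e-07). Sema5b, Sema6b and Sema6c were not called.

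Of the 8 plexins, the signalling receptors of semaphorins, 1 was higher in TM, 3 were higher in DM, 0 were lower in either, and 3 were lower in TM against DM. Plxna4 read 7.49, 7.65 and 7.51 in TM and 10.86, 10.97 and 10.74 in DM, against 7.42, 7.25 and 7.39 in WT. DM was more than 3 log2 units above the rest, with TM a little above WT. The rise in DM was 3.50 (SE 0.075, adjusted p = 2.36e-12, 11.3-fold), and TM stood at 0.19 (95% interval 0.03 to 0.36, adjusted p = 0.0728). Plxna2 read 9.50, 9.56 and 9.58 in TM and 9.0, 9.21 and 8.94 in DM, against 7.36, 7.45 and 7.40 in WT. Both mutants were raised, TM above DM. The rise was 2.15 in TM (SE 0.071, adjusted p = 1.76e-10, 4.43-fold) and 1.65 in DM (adjusted p = 1.73e-09, 3.13-fold), and the mutants differed by 0.50, under the fold limit.

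Plxnb1, the receptor of Sema4d, averaged 8.94 ± 0.10 in TM and 9.92 ± 0.095 in DM, against 9.13 ± 0.065 in WT (SD, n = 3 each), a rise of 0.79 in DM (adjusted p = 1.99e-06). Plxna3, on the X chromosome, averaged 9.72 ± 0.15 in TM and 10.47 ± 0.012 in DM, against 9.93 ± 0.048 in WT. It was called between the mutants at -0.75 (adjusted p = 5.17e-06), and its DM difference of 0.54 crossed the fold limit with quantile normalization (0.60) or cyclic loess (0.63). Xist and the Y-linked genes moved with DM here as well, and the part of the sex chromosomes was not tested. Plxna1, Plxnb2, Plxnc1 and Plxnd1 were not called, with differences from WT between -0.30 (Plxnd1 in TM) and 0.44 (Plxna1 in DM).

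The 2 neuropilins, the ligand-binding partners of the plexins, moved apart in TM. Nrp1, which also binds VEGF, read 11.57, 11.69 and 11.82 in TM and 10.81, 10.81 and 10.95 in DM, against 10.68, 10.60 and 10.70 in WT. Nrp2 read 10.10, 10.13 and 9.99 in TM and 9.98, 10.08 and 10.06 in DM, against 10.83, 10.91 and 11.03 in WT. TM alone was clearly raised for Nrp1, and both mutants, overlapping each other, lay below WT for Nrp2. Nrp1 rose by 1.03 in TM (SE 0.072, adjusted p = 1.98e-07) and stood at 0.19 in DM (95% interval 0.04 to 0.35, adjusted p = 0.0522). Nrp2 fell by 0.85 in TM (SE 0.068, adjusted p = 6.65e-07) and by 0.89 in DM (adjusted p = 4.24e-07), and its difference between the mutants was 0.03 (95% interval -0.11 to 0.18).

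**Figure D4:**
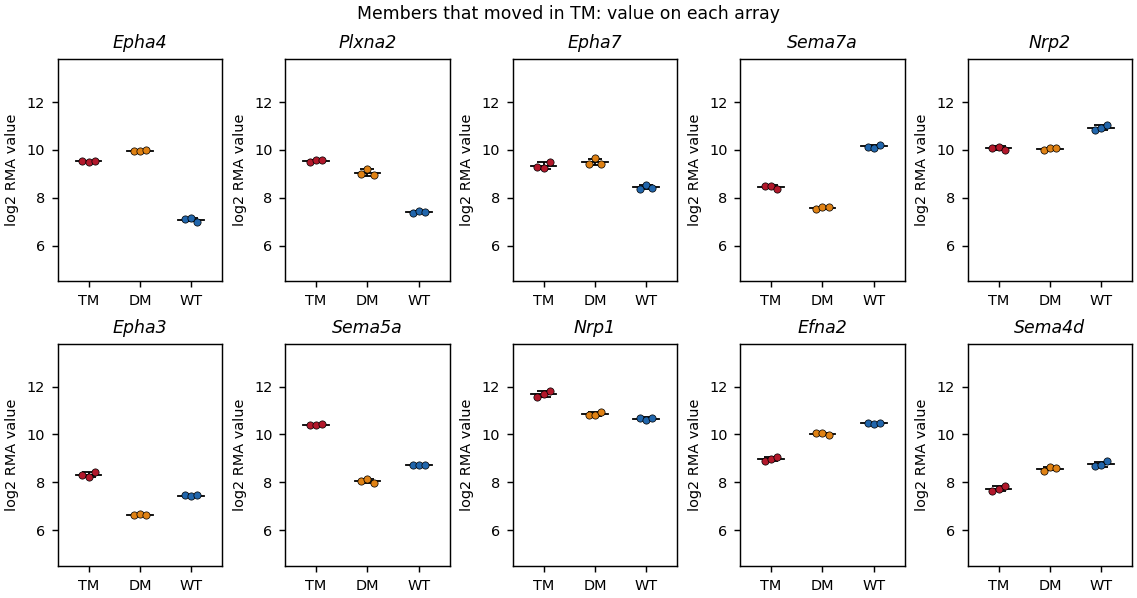
Log2 RMA value (vertical axis, the same in each panel) on each array of 10 guidance genes that were called in TM against WT, with TM, DM and WT from left to right. Points are arrays, bars the mean and error bars the SD (n = 3). Epha4, Plxna2 and Epha7 were higher and Sema7a and Nrp2 lower in both mutants, and for Epha3 and Sema5a WT lies between TM and DM.

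Some ligands and their known receptors can be set side by side, as examples and not as a full set. Sema3e rose in DM, and its receptor Plxnd1 stood at 0.26 (adjusted p = 0.0147) and was not called. Sema7a fell in both mutants, and its receptor Plxnc1, dim throughout at 6.16 in TM, 5.93 in DM and 5.90 in WT, was not called. Plxnb1 rose in DM, where its ligand Sema4d stood at -0.18, and Sema4d fell in TM, where Plxnb1 stood at -0.18 (adjusted p = 0.069). Efna1 and its receptor Epha2 both fell in TM, and neither was called in DM. Sema6a (0.73) and its receptor Plxna2 (2.15) both rose in TM, where its receptor Plxna4 stood at 0.19. In DM, Plxna2 and Plxna4 rose and Sema6a stood at -0.02. Efnb1 (1.12) and the EphB receptors Ephb3 (0.86) and Ephb6 (1.01) rose in DM, where Ephb1 and Ephb4 were not called. Sema6d rose in DM (2.28), and its receptor Plxna1 stood at 0.44 and was not called. By role, 2 of 28 ligands were higher and 6 lower in TM, where 5 of 20 receptors were higher and 2 lower. These are 7.14% and 21.4% of ligands and 25% and 10% of receptors, beside 5.59% and 3.56% of all genes. In DM, 5 ligands were higher and 2 lower (17.9% and 7.14%), and 7 receptors were higher and 2 lower (35% and 10%), beside 5.28% and 5.67%. In TM against DM, ligands were 3 higher and 9 lower (10.7% and 32.1%). Receptors were 2 higher and 6 lower (10% and 30%), beside 4.68% and 3.61% of all genes.

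Genes that act with the Eph receptors inside the cell were called at 2 higher and 2 lower of 26 in TM, 4 and 4 in DM, and 2 and 4 in TM against DM. These are 7.69% each way in TM and 15.4% each way in DM, beside 5.59% and 3.56% of all genes higher and lower in TM and 5.28% and 5.67% in DM. In TM against DM the shares were 7.69% and 15.4%, beside 4.68% and 3.61% of all genes. Chn2, a chimaerin that inactivates Rac, averaged 8.23 in TM and 9.72 in DM, against 6.55 in WT, a rise of 1.69 and 3.17 (adjusted p = 3.24e-08 and 6.93e-11). Vav3, a guanine nucleotide exchange factor, averaged 7.19 in TM and 8.16 in DM, against 9.23 in WT, differences of -2.05 and -1.07. Kalrn, another exchange factor, was higher by 0.88 in TM and 1.85 in DM. Grip1, a scaffold that binds ephrin-B tails, was higher in DM by 0.85 and stood at 0.01 in TM.

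Partners of the semaphorins and plexins were called at 3 higher and 3 lower of 36 in TM, 6 and 1 in DM, and 4 and 4 in TM against DM. As shares these are 8.33% each way in TM, near those of all genes (5.59% and 3.56%), and 16.7% and 2.78% in DM (5.28% and 5.67% of all genes). In TM against DM the share was 11.1% each way, beside 4.68% and 3.61% of all genes. Itga1, a subunit of an integrin that Sema7a binds, averaged 9.16 in TM and 8.57 in DM, against 6.27 in WT, a rise of 2.89 and 2.30 (adjusted p = 2.65e-10 and 1.88e-09) in the mutants in which Sema7a fell. Dpysl3, of the collapsin response mediator family, fell by 0.64 in TM and fell by 1.38 in DM. Its relative Dpysl5 was higher in DM by 0.98. Met, the HGF receptor, which associates with plexin-B1, averaged 10.19 in TM and 11.57 in DM, against 10.85 in WT, and was called lower in TM (-0.66) and higher in DM (0.71).

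Other guidance systems were called at 4 higher and 1 lower of 22 genes in TM, 2 and 2 in DM, and 2 and 1 in TM against DM. Their shares were 18.2% and 4.55% in TM (5.59% and 3.56% of all genes) and 9.09% each way in DM (5.28% and 5.67%). In TM against DM they were 9.09% and 4.55% (4.68% and 3.61% of all genes). Unc5c, a netrin receptor, averaged 10.79 in TM and 8.18 in DM, against 8.13 in WT, a rise of 2.66 in TM (adjusted p = 3.61e-11). Robo2, a Slit receptor, was higher by 1.07 in TM and 2.39 in DM, and Slit2, one of its ligands, averaged 12.42 in TM and 10.42 in DM, against 12.26 in WT. Ntn4, a netrin of basement membranes, fell by 1.14 in TM and fell by 0.84 in DM.

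Some markers of other cell types moved with the guidance genes that were raised in DM alone. Wt1, Upk3b, Upk1b and Lrrn4, which mark mesothelium, were higher in DM by 4.05, 5.07, 5.57 and 4.12, and stood between -0.25 and 0.07 in TM. All 6 mesothelial markers were lower in TM against DM, whereas in DM against WT 4 were higher and Msln fell by 1.43. In TM against WT, Msln stood at -3.61 and Krt19 at -1.81, both called lower. Of 8 epithelial markers, 3 were higher in DM, led by Krt18 at 2.69, and 0 were called in TM. Their mean over the 8 genes was 7.05 to 7.15 in TM, 7.70 to 7.84 in DM and 7.13 to 7.18 in WT. Of the 12 fibroblast markers, 2 were higher in DM (Pdgfrb at 1.18 and Dcn at 1.14), 3 were lower (S100a4 at -2.28, Pdgfra at -1.91 and Col1a2 at -1.71) and 7 were not called. The part of these cell types in the rises of Sema3c, Sema3d, Sema6d, Plxna4 and the other guidance genes of that pattern was not tested; more cells of a type and more RNA per cell cannot be told apart in these samples.

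Some smooth muscle and pericyte markers moved with the genes raised in TM and not in DM. Of 8, 3 were higher in TM, and 0 were higher and 1 lower in DM, with Cnn1 at 3.47, Cspg4 at 1.80 and Tagln at 0.72 in TM against WT. The other 5 were not called in TM and stood between -0.11 (Mcam) and 0.55 (Acta2). Their mean over the 8 genes was 9.95 to 10.02 in TM, 8.94 to 9.02 in DM and 9.16 to 9.22 in WT. Of the 12 fibroblast markers, 4 were higher in TM (Thy1 at 2.93, Dcn at 1.83, Pdgfrb at 1.23 and Prrx1 at 0.87), 1 was lower (S100a4 at -1.46) and 7 were not called. Their part in the rises of Sema5a, Epha3, Nrp1 and Sema6a was not tested. Endothelial and leukocyte markers were called at 0 of 8 each in the 3 comparisons, and the mean over the 8 endothelial genes was 6.70 to 6.84 in TM, 6.70 to 6.83 in DM and 6.62 to 6.68 in WT. Of 8 neuronal and glial markers, Map2 alone was called. It was higher in TM (0.73) and lower in DM (-1.32) against WT, and higher in TM against DM (2.06), the directions of Epha3 and Sema5a.

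**Figure D5:**
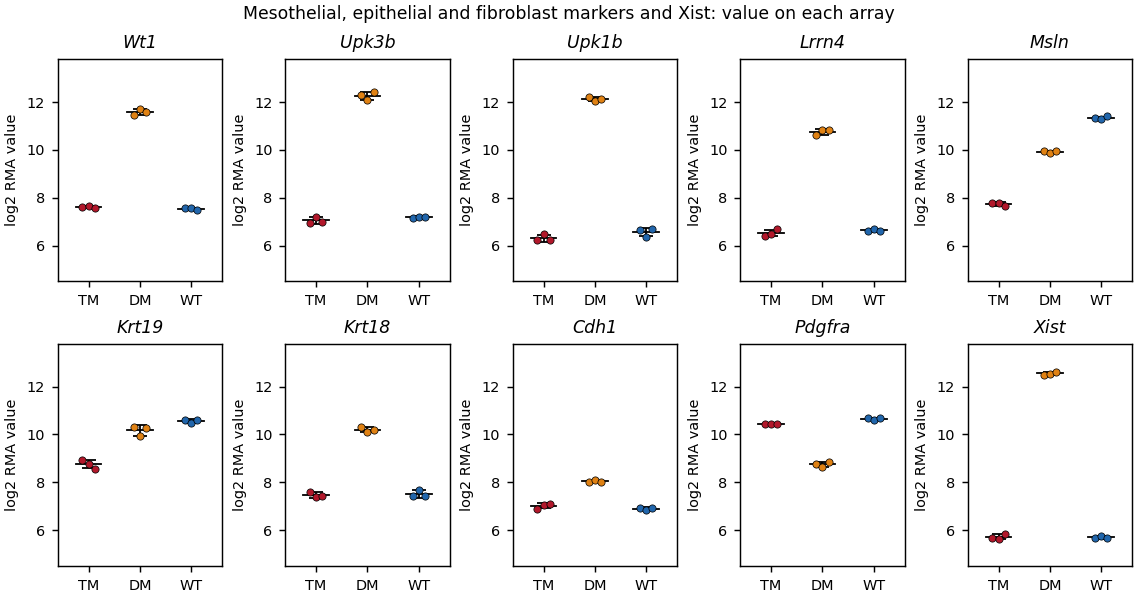
Log2 RMA value (vertical axis, the same in each panel) on each array of the 6 mesothelial markers (Wt1, Upk3b, Upk1b, Lrrn4, Msln, Krt19), the epithelial markers Krt18 and Cdh1, the fibroblast marker Pdgfra, and Xist, with TM, DM and WT from left to right. Points are arrays, bars the mean and error bars the SD (n = 3). Wt1, Upk3b, Upk1b, Lrrn4 and Xist are high in DM alone, and Msln is highest in WT.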

How the data were processed

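The table the authors deposited holds log2 intensities of probe sets, for which the processing notes of the submitters give RMA without a version. The study's methods describe Affymetrix Gene ST arrays, and analysis with RMA and PLIER. RMA evens out the arrays, so a shift of all genes between genotypes would have been removed before deposit. Genes were named from the platform annotation: of 35556 probe sets, 21789 have 1 symbol, 1621 several and 12146 none listed. Where a gene had several probe sets (3 of the guidance genes), the brightest was used.

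A single linear model of all 9 arrays was fitted with lmFit and eBayes (limma 3.58.1, R 4.3.3; 6 residual degrees of freedom), and was tested on simulated data beforehand. The study's methods name Student's t-tests, which were tried as an alternative. The genes and lists were chosen with earlier results of these data known. Values of every array are given for the 6 largest called rises and falls of each comparison and for genes called in opposite directions, and up to 4 called genes are named from each partner list. No p is given for a list. TM and DM share the WT arrays. In 12514 probe sets a value is repeated between arrays, and 754 genes, of which 2 are guidance genes, hold 3 identical values in a genotype, which understates their spread. Of the 27 counts of 0 within families and roles, 27 were also 0 at an unadjusted p under 0.05 and with a Student's t-test at that threshold, the fold limit kept. That limit decides nearly all calls: 1115 of all genes were higher in TM against WT with an adjusted or an unadjusted p. The check therefore had little room to differ. No source used here names the genome build of the array annotation.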

Additional observations from a re-analysis of the deposited data

How the results depend on the processing

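With no fold limit, the counts of guidance genes higher and lower were 12 and 13 in TM against WT, 21 and 9 in DM against WT, and 11 and 26 in TM against DM. Over 2-fold they were 4 and 3 in TM against WT, 2 and 6 in TM against DM, and 1 was lower in DM against WT. The shares of all genes at these other limits are not given here. With genes below the median level left out, 3 were higher in TM against DM. All other counts stayed within 1.5 times the reported ones, including those with the study's t-test, other scalings and other variance models. With each array left out in turn, 12 to 13 were higher in DM against WT and 15 to 16 lower in TM against DM, and the other 4 counts did not move. Of the 78 differences from or between genotypes of the named guidance genes, no called one changed direction, and those that crossed the threshold are given with Epha2, Sema3a, Sema3f, Sema4d and Plxna3. With the replicate number as a block (replicate block), all 78 kept their call, and the counts were 7 and 8, 12 and 4, and 5 and 15 as reported. Arrays of the same number in different genotypes correlated between -0.239 and 0.168 in their deviations, so the numbers were not taken as pairs. Median centring moved the median of all genes to -0.105 in TM and -0.066 in DM against WT, which leaves differences near the 1.5-fold limit dependent on the scaling. Of the 48, 16 lay below the median gene, where background weighs more in the value, and 3 arrays of a genotype limit the precision of each value.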
